A study of Mus musculus with 18 samples.

Results

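The genes of oxidative phosphorylation were taken by symbol from the RNA table: every gene whose name begins with Nduf followed by a, b, c, s or v, with Cox4 to Cox8, Uqcr or Atp5, the 4 genes Sdha to Sdhd, and the mitochondrially encoded mt-Nd, mt-Co, mt-Cytb and mt-Atp genes. This gave 125 genes of the 55494 in the table, 112 encoded in the nucleus and 13 on the mitochondrial genome. The nuclear genes held 36 subunits of complex I, 8 complex I assembly factors, 4 genes of complex II, 8 of complex III, 20 of complex IV, 18 of complex V and 18 pseudogenes or further copies. Of the 125, 8 had no UMI (unique molecular identifier, here 1 counted RNA molecule) and 22 had between 1 and 99.

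Oxidative phosphorylation passes electrons from NADH and succinate through complexes I to IV to oxygen and uses the resulting proton gradient to make ATP at complex V. Complexes I, III, IV and V are built from subunits of both genomes, whereas complex II is encoded wholly in the nucleus. Nuclear subunits are transcribed gene by gene, and the mitochondrial ones are cut from long transcripts of the whole mitochondrial genome. Thymocytes pass from CD4-CD8- through CD4+CD8+ to CD4+CD8- or CD4-CD8+ cells, and both proliferation and signalling through the T cell receptor are known to alter their metabolism.

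The cells came from thymi of 6 female mice of the B6 strain, 14 weeks of age. Each was a bone marrow chimera examined 6 weeks after transplantation. All hosts received 30% donor marrow (CD45.1.2, carrying the OT1 or the OT2 receptor transgene, both specific for ovalbumin) and 70% competitor marrow of B6 CD45.1 mice. PosSelected hosts were C57BL6/Ncr wild type; NegSelected hosts carried RIPmOVA, the Ins2-TFRC/OVA transgene, in which the rat insulin promoter drives ovalbumin; the OT1 NoSelection host was a b2m KO on B6.Ly5.1/Ncr. For the OT2 NoSelection host the treatment label and the series design give MHCII KO, whereas the mouse and sample comments give b2m KO. The host genotype of this mouse is therefore uncertain. Donor cells were sorted as CD44lo CD45.1.2+ Va2+ Vb5+, and all 6 mice shared 1 10x lane and were told apart by hashtags. Whether every cell carried only the transgenic receptor pair was not tested.

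There was 1 mouse per receptor and host, and every p-value below measures the spread between mice as far as an additive fit over receptor and host, or over mouse and gate, leaves one. The table held 1331 cells, between 108 and 306 per mouse, with 525843 to 1867488 RNA UMIs per mouse and no barcode used more than once. The median cell held 5134.5 UMIs in the OT1 mice and 2893 in the OT2 mice. Cells with at least 3 UMIs of 9 cycling genes made up 10.8%, 13.8% and 12.3% of cells in the OT1 mice (NoSelection, PosSelected, NegSelected) and 8.33%, 0% and 1.69% in the OT2 mice in the same order. Receptor, depth per cell and cycling cells therefore moved together. The summed erythroid markers reached at most 1.07 CPM (UMIs scaled to a common total of counts) in any mouse, those of thymic epithelium 36.1, of B cells 36.1 and of myeloid cells 213.

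Most of the nuclear genes are transcribed from promoters near CpG-rich starts that factors such as NRF1, ETS family members (GABP), YY1 and Sp1 are known to bind. RefSeq promoter windows (GRCm38.p6, 250 bases before to 50 after the start) matched 76 of the 112 nuclear members by symbol. Searched on both strands, the NRF1 letters (GCGCA, any 1 base, then GCGC) were found in 18 of these 76 windows (23.7%) and in 4.78% of the windows of all 27025 symbols. The ETS letters CCGGAAG were in 18 windows (23.7%) against 9.12% of all, the YY1 letters AAGATGGC in 10 (13.2%) against 2.88%, and the Sp1 letters GGGCGG in 35 (46.1%) against 35.9%. A match is a description of the letters and not a bound site. Shown here are the windows of 4 genes to which the comparisons below return, from 120 bases before to 25 bases after the start, 5′ to 3′ along the gene's strand (the minus strand for all 4). Capitals mark NRF1, ETS and YY1 matches on either strand, and no base lay in 2 of them. Atp5pb, at chr3:105959239-105959383, has a YY1 match from position -3. Atp5e, at chr2:174464077-174464221, has an ETS match from position -102. Atp5k, at chr5:108434375-108434519, has an NRF1 match from position -50 and an ETS match from position 13. Sdhd, at chr9:50603825-50603969, has an NRF1 match from position -79 and an ETS match from position -46.
Atp5pb: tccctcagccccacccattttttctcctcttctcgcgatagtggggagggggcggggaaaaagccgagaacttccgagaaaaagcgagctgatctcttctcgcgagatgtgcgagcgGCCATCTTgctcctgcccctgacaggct
Atp5e: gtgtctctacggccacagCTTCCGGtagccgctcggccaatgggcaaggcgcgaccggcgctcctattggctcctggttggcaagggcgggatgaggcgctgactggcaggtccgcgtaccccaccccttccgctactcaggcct
Atp5k: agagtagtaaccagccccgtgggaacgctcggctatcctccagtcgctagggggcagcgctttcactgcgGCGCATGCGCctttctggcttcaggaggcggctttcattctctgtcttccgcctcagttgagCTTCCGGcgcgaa
Sdhd: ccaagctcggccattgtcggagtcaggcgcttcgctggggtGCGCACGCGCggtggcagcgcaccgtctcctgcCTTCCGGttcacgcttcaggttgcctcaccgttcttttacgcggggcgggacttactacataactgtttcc

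Of the nuclear genes, 146758 UMIs were counted, and of the 13 mitochondrial genes 25301, which was 26.1% of the 96977 UMIs of all mt- genes (most of the rest being the ribosomal mt-Rnr2). The mitochondrial UMIs were spread unevenly. mt-Co1, the catalytic subunit of complex IV, had 8486 UMIs (33.5% of the 13 genes) and mt-Cytb, the cytochrome b of complex III, had 7480 (29.6%). Per kilobase of gene, mt-Atp8 (1958 UMIs, 204 bases) was highest with 9598 UMIs, followed by mt-Cytb with 6538 and mt-Co1 with 5493. A UMI stands for 1 molecule whatever its length, so this scaling favours short genes and does not rank levels of RNA. The complex I genes followed with 2125 per kilobase for mt-Nd1, 1720 for mt-Nd2, 997 for mt-Nd5, 862 for mt-Nd4, 848 for mt-Nd4l and 289 for mt-Nd6, the one gene of the set on the light strand. The lowest were mt-Atp6 (101 per kilobase, 69 UMIs), mt-Co2 (77.5, 53 UMIs), mt-Co3 (28.1, 22 UMIs) and mt-Nd3 (17.2, 6 UMIs). These 4 stand close together on the mitochondrial genome, with mt-Co2 at 7013 to 7696, mt-Atp6 at 7927 to 8607, mt-Co3 at 8607 to 9390 and mt-Nd3 at 9459 to 9806 in RefSeq GRCm38.p6. mt-Atp8, the shortest of the 13 genes, lies between them at 7766 to 7969 and overlaps mt-Atp6. The counts of mt-Atp8 and mt-Atp6 therefore need not be levels of separate RNAs. Near-identical copies stand on chromosome 1, Gm10925 (24613971 to 24614651, with mt-Atp6 among its RefSeq synonyms, 21 UMIs) and Gm10222 (24612404 to 24612700, 4 UMIs), so that counts of the mitochondrial originals are uncertain; the part of these copies in the low counts was not tested.

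The isoforms counted were almost all of the ubiquitous kind. Complex IV has paired nuclear subunits, one general and one known from muscle, lung or testis. UMIs over all 6 mice, not scaled by length, were 5355 for Cox4i1 and 2 for Cox4i2, 2041 for Cox6a1 and 1 for Cox6a2, 2951 for Cox6b1 and 48 for Cox6b2. Cox7a2 had 2318 and Cox7a2l, which takes part in supercomplexes, 1677, against 12 for Cox7a1. Cox8a had 4943, with 0 for Cox8b and Cox8c, Cox7b had 1609 with 0 for Cox7b2, and Ndufa4 had 3439 with 0 for Ndufa4l2. A count of 0 in this table allows up to 3 counts. The 3 genes for the c subunit of the ATP synthase rotor were all counted, with 1623 UMIs for Atp5g1, 2778 for Atp5g2 and 5226 for Atp5g3. The symbol Atp5o occurred as 2 entries, with 2 and 1770 UMIs.

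The receptor carried by the cells was compared first. As a share of all RNA UMIs of a mouse, the 13 mitochondrial genes took 0.331% in OT1 NoSelection (95% exact Clopper-Pearson interval 0.322 to 0.339), 0.359% in OT1 PosSelected (0.351 to 0.368) and 0.331% in OT1 NegSelected (0.322 to 0.342). They took 0.396% in OT2 NoSelection (0.380 to 0.414), 0.437% in OT2 PosSelected (0.423 to 0.452) and 0.441% in OT2 NegSelected (0.424 to 0.459). All 3 OT2 mice lay above all 3 OT1 mice, by 0.084 percentage points on average (SD 0.023 over the 3 hosts). Intervals here and below cover counting error only, and a share over many genes was given no test. Other measures moved with the receptor as well. All mt- genes together took 1.25% to 1.29% of UMIs in the OT1 mice and 1.57% to 1.94% in the OT2 mice, and the RNA quality list (mt-Rnr1, mt-Rnr2, Malat1 and Neat1) summed to 12079 to 12358 CPM against 15558 to 21505 CPM. By antibody, as described below, CD4-CD8- cells were 226 of 306, 84 of 282 and 137 of 204 cells in the OT1 mice (NoSelection, PosSelected, NegSelected) and 49 of 108, 22 of 254 and 30 of 177 in the OT2 mice. The part of RNA quality in the difference was not tested. Within CD4-CD8- cells the mitochondrial share was 0.322%, 0.338% and 0.302% with OT1 and 0.359%, 0.423% and 0.455% with OT2, and within CD4+CD8+ cells 0.398%, 0.396% and 0.329% against 0.549%, 0.440% and 0.434%. In both gates the receptors did not overlap, whereas in CD4+CD8- cells they did, with 0.328%, 0.366% and 0.509% against 0.397%, 0.431% and 0.452%. The nuclear genes took 2.05%, 2.36% and 2.23% of UMIs in OT1 NoSelection, PosSelected and NegSelected and 2.16%, 1.72% and 1.87% in the OT2 mice in the same order. OT2 PosSelected and OT2 NegSelected were the lowest, and OT2 NoSelection lay among the OT1 mice. The OT2 minus OT1 difference averaged -0.293 percentage points (SD 0.375), positive in 1 of 3 hosts. In these sums over cells, fewer cells of a type and less RNA per cell cannot be told apart.

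**Figure D1:**
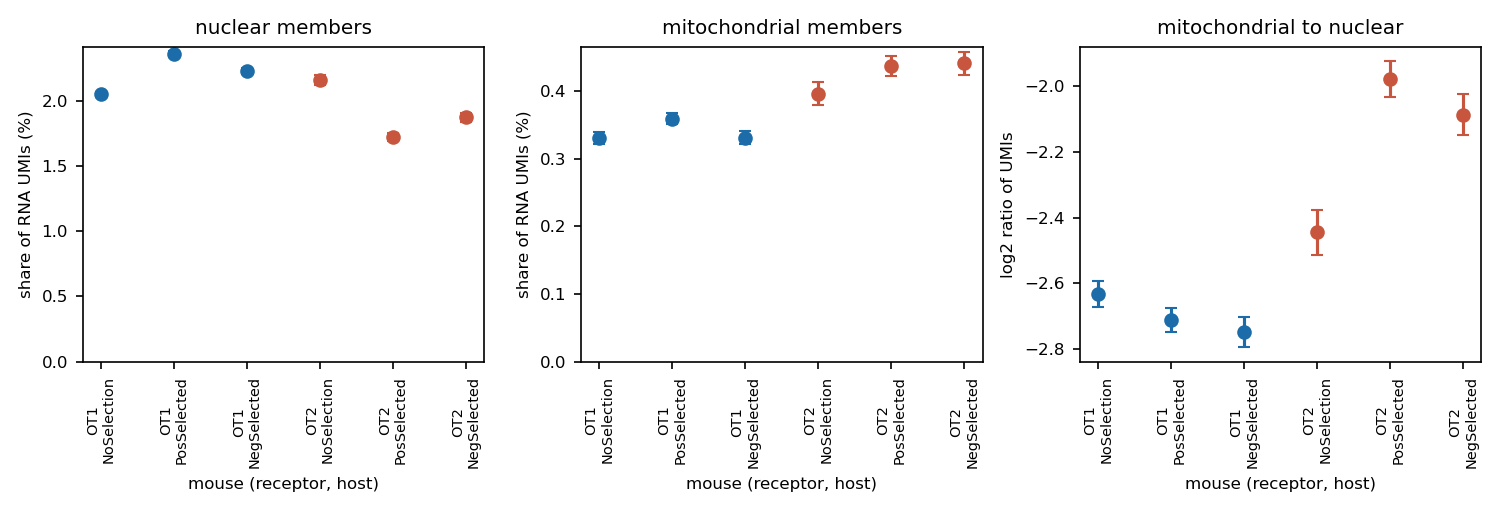
Share of all RNA UMIs (%) taken by the nuclear and by the mitochondrial members, and the log2 ratio of mitochondrial to nuclear UMIs, for each mouse (blue OT1, red OT2); bars are 95% intervals for counting error. The mitochondrial share is above 0.39% in all 3 OT2 mice and below 0.36% in all 3 OT1 mice, and the nuclear share is lowest in OT2 PosSelected (1.72%).

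The log2 ratio of mitochondrial to nuclear UMIs joined both parts. It was -2.63, -2.71 and -2.75 in the OT1 mice (NoSelection, PosSelected, NegSelected) and -2.44, -1.98 and -2.09 in the OT2 mice. The groups did not overlap, and the difference was 0.53 (SD 0.30), higher with OT2 in 3 of 3 hosts. It was widest in the 2 hosts in which the OT2 mouse had few cycling cells. When cells of 2000 to 5000 UMIs alone were kept, a window chosen after the data were seen, the ratio was still higher with OT2 in 3 of 3 hosts, by 0.31 (SD 0.13). In that window the mitochondrial shares were 0.34%, 0.40% and 0.35% with OT1 and 0.41%, 0.42% and 0.42% with OT2. The nuclear shares were 1.71%, 1.97% and 2.03% with OT1 against 1.81%, 1.71% and 1.81% with OT2 and overlapped.

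Both shares moved with the depth of a cell. Over the cells of all OT1 mice together, the nuclear genes took 1.12% of UMIs in the 38 cells under 2000 UMIs, 1.88% from 2000 to under 3500, 1.88% from 3500 to under 5000, 1.92% from 5000 to under 8000 and 2.66% in the 153 cells of 8000 or more. In OT2 mice the same bins gave 1.54%, 1.80%, 1.68%, 1.89% and 2.46%, the last over 31 cells. The mitochondrial genes ran the other way, from 0.795% through 0.391%, 0.351% and 0.341% to 0.317% with OT1, and from 0.585% through 0.419%, 0.427% and 0.422% to 0.380% with OT2. Cells of 8000 UMIs or more thus had the highest nuclear and the lowest mitochondrial share within either receptor. These are shares of a cell's UMIs and not amounts of RNA per cell. Cycling cells made up 53.6% (OT1) and 35.5% (OT2) of cells of 8000 UMIs or more, and at most 4.67% in any other bin. In the OT1 mice, cells of that depth that were not cycling had nuclear shares of 1.88%, 2.16% and 2.02%. Their mitochondrial shares were 0.359%, 0.378% and 0.349%. Depth and cycling are thus mixed in the last bin, and their parts were not tested here. From 2000 UMIs upward the mitochondrial share was higher with OT2 in all 4 bins and the nuclear share lower in all 4, while under 2000 UMIs both orders were the opposite. Cells are not replicates, and no test was made over them.

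**Figure D2:**
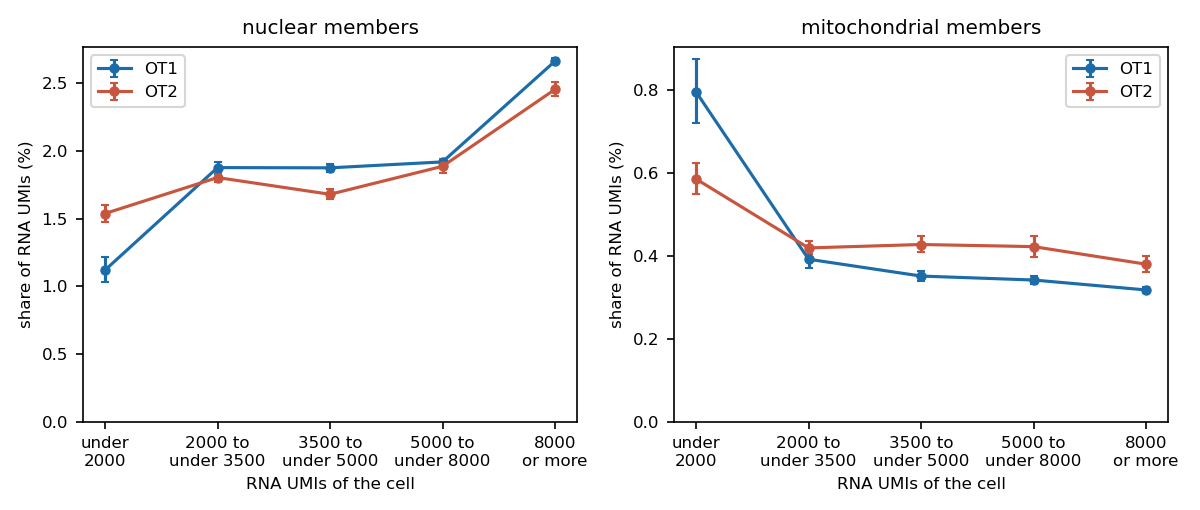
Share of RNA UMIs (%) of nuclear and of mitochondrial members in cells grouped by their RNA UMIs, summed over the 3 OT1 (blue) and the 3 OT2 mice (red), with 95% intervals for counting error. The nuclear share is highest (2.66% and 2.46%) in cells of 8000 UMIs or more, and the mitochondrial share is highest in cells under 2000 UMIs (0.795% and 0.585%). Of the cells of 8000 UMIs or more, 53.6% (OT1) and 35.5% (OT2) are cycling.

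Gene by gene, the receptor comparison had the same split in direction but no called member. edgeR's quasi-likelihood test on sums per mouse, with terms for receptor and host, tested 87 nuclear and 11 mitochondrial members among 9092 genes, of which 97 passed an adjusted p of 0.05 (1.07%; 0.671% as higher and 0.396% as lower with OT2). No member passed with edgeR, DESeq2 or limma-voom, and 9 nuclear and 1 mitochondrial member had an unadjusted p under 0.05 with edgeR. The share of all genes under this unadjusted p is not given here or below, so such counts have no background beside them. The fold change (log2, OT2 against OT1) was below 0 for 85 of the 87 nuclear members, with a median of -0.24, beside a median of 0.01 over all genes. It was above 0 for 10 of the 11 mitochondrial members, with a median of 0.27. By complex the medians were -0.24 for complex I, -0.46 for complex II, -0.18 for complex III, -0.33 for complex IV and -0.23 for complex V, and -0.10 for the complex I assembly factors. The nuclear median was -0.11 in cells of 2000 to 5000 UMIs and -0.14 without cycling cells, and the mitochondrial median 0.19 and 0.16. Leaving out 1 mouse moved the nuclear median to -0.40 without OT1 NoSelection and -0.41 without OT2 NoSelection, and to -0.15 without OT1 PosSelected or without OT2 PosSelected. The mitochondrial median ran from 0.17 without OT2 PosSelected to 0.35 without OT1 NoSelection. Leaving out OT1 NoSelection or OT2 NoSelection, edgeR called 3 nuclear members each. The shares of all genes called in these fits are not given, and no result is read from these counts.

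Single genes showed the spread behind these medians. Ndufb8, an accessory subunit of the complex I membrane arm, had 162.3, 155.3 and 167.6 CPM in OT1 NoSelection, PosSelected and NegSelected and 123.6, 106.8 and 117.1 in the OT2 mice. All OT1 values lay above all OT2 values, and the fold change was -0.52 on the log2 scale (SE 0.16, adjusted p = 0.232, edgeR). Cox5b, a matrix-side subunit of complex IV, had 446.6, 508.8 and 464.5 CPM with OT1 and 445.0, 248.4 and 310.5 with OT2. The OT2 NoSelection value lay just under the lowest OT1 value, and the other OT2 values were well below (-0.57, SE 0.20, adjusted p = 0.290, edgeR). mt-Cytb had 931.7, 1114.8 and 875.7 CPM with OT1 and 1122, 1374.7 and 1442 with OT2. Its groups did not overlap, with OT1 PosSelected just under OT2 NoSelection (0.40, SE 0.14, adjusted p = 0.292, edgeR).

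Complex II links the citric acid cycle to the respiratory chain, and its 4 genes did not share 1 pattern. Sdhd, a membrane anchor, had 91.6, 94.0 and 98.7 CPM with OT1 and 87.5, 57.1 and 45.8 with OT2 (-0.64, SE 0.23, adjusted p = 0.297, edgeR). Sdhb, the iron-sulfur subunit, had 185.3, 235.9 and 186.4 CPM with OT1 and 180.7, 144.1 and 147.6 with OT2. Sdhc, the other anchor, had 49.3, 61.8 and 61.9 with OT1 and 45.6, 38.5 and 39.0 with OT2. For these 3 genes OT2 NoSelection was the highest OT2 mouse and the groups did not overlap. Sdha, the flavoprotein, had 137.6, 167.1 and 133.9 CPM with OT1 and 131.2, 149.0 and 166.3 with OT2, and its groups overlapped.

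Catalytic and core genes of the larger complexes did not all separate the receptors. Atp5b, the catalytic beta subunit of complex V, had 761.5, 889.2 and 778.6 CPM with OT1 and 730.3, 551.4 and 668.4 with OT2. Cox5a had 396.8, 443.8 and 399.5 against 391.8, 232.2 and 318.9. For both genes every OT1 value exceeded every OT2 value, and OT2 PosSelected was lowest. Uqcrc1, a core subunit of complex III, had 196.0, 222.4 and 188.8 CPM with OT1 and 213.0, 176.3 and 154.4 with OT2. Ndufs1, the largest subunit of complex I, had 46.1, 61.2 and 47.0 against 51.3, 43.5 and 42.4. For these 2 genes OT2 NoSelection lay inside the OT1 range.

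Among genes with at least 100 UMIs, all 3 OT1 mice lay above all 3 OT2 mice for 21 of 86 nuclear members, beside 7.79% of the 7457 other genes, and the reverse held for 0 of them. All 3 OT2 mice lay above all 3 OT1 mice for 5 of 9 mitochondrial members, beside 11.1% of the other genes: mt-Co1, mt-Cytb, mt-Atp8, mt-Nd4 and mt-Nd4l. mt-Co1 had 1160.4, 1125.6 and 1177.2 CPM with OT1 and 1470, 1361 and 1445.4 with OT2. mt-Nd5 was nearly level across mice, with 253.8, 271.3 and 264.7 against 266.2, 257.1 and 261.3. The mitochondrial genes thus did not move by 1 common factor. The ratio of mt-Cytb to mt-Co1 UMIs was 0.803, 0.990 and 0.744 in the OT1 mice (NoSelection, PosSelected, NegSelected) and 0.763, 1.01 and 0.998 in the OT2 mice, with counting intervals such as 0.753 to 0.856 in OT1 NoSelection and 0.928 to 1.10 in OT2 PosSelected. It was near 1 in both PosSelected mice and in OT2 NegSelected, and lower in the other 3.

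Other mitochondrial gene lists gave the context of the same comparison. Of 77 mitochondrial ribosome genes tested, 12 were above 0 (median -0.19), of 90 cytosolic ribosome genes 15 (-0.13), of 13 genes of the citric acid cycle 2 (-0.13) and of 10 electron carrier genes, Cycs and the coenzyme Q pathway, 1 (-0.58), and none passed the threshold. Genes of mitochondrial transcription and RNA handling were above 0 in 17 of 27 (0.07), regulators of mitochondrial biogenesis in 5 of 10 (0.01). Of 16 glycolysis genes 5 were above 0 (-0.25) and 1 passed, as higher (adjusted p = 0.046, edgeR). The lower values with OT2 were therefore not limited to the oxidative phosphorylation genes.

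**Figure D3:**
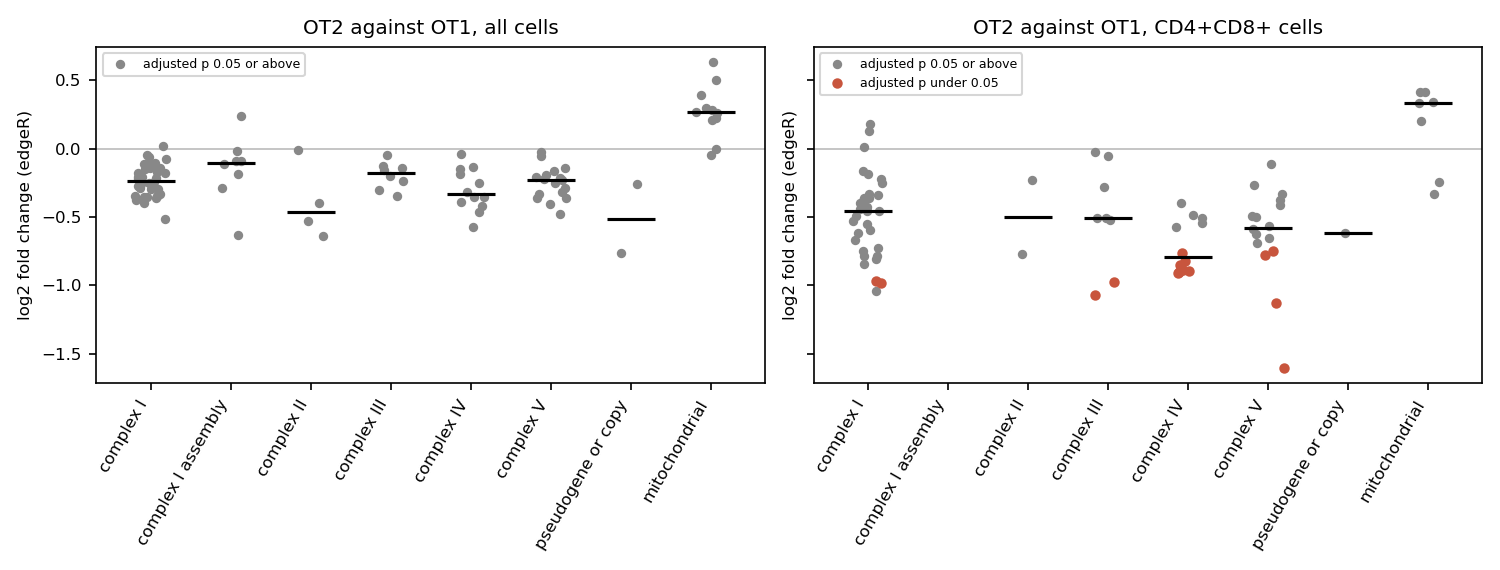
Log2 fold change of OT2 against OT1 (edgeR) for each member tested, by complex, in all cells (left) and in CD4+CD8+ cells (right); each point is a gene, black lines are medians and red points have an adjusted p under 0.05. No member passes in all cells, and 15 nuclear members do in CD4+CD8+ cells, all below 0.

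Within CD4+CD8+ cells, split off by antibody as described below, the nuclear median was further below 0 than in all cells, and within CD4-CD8- cells it was nearer to 0. The gates were compared in this by the interaction test of single genes only, given below. In CD4-CD8- cells 1.16% of 7168 genes passed and 0 of 84 nuclear members did (1 at an unadjusted p under 0.05), with a nuclear median of -0.06 and a mitochondrial median of 0.20. In CD4+CD8+ cells 500 of 2758 genes passed (18.1%), 221 as higher with OT2 (8.01%) and 279 as lower (10.1%). Of 71 nuclear members tested, 15 fell and 0 rose, 68 were below 0, and the median was -0.52 against 0.02 over all genes; of 7 mitochondrial members 0 passed, with a median of 0.34 (0.17 without OT1 NoSelection and 0.18 without OT2 NoSelection, and 0.06 in cells of 2000 to 5000 UMIs). The 15 were 4 genes of complex V (Atp5k, Atp5g2, Atp5g3, Atp5e), 7 of complex IV (Cox5a, Cox5b, Cox6b1, Cox6c, Cox7a2l, Cox8a, Ndufa4), 2 of complex III (Uqcrq, Uqcr10) and 2 of complex I (Ndufb9, Ndufa11). Most of these code for small subunits around the catalytic cores of their complexes, and Atp5g2 and Atp5g3 for the rotor ring.

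Atp5k, subunit e of the ATP synthase, known for its part in dimers of the enzyme and shown above with its promoter, had the largest change. In CD4+CD8+ cells it had 198.8, 240.6 and 212.3 CPM in the OT1 mice (NoSelection, PosSelected, NegSelected) and 70.4, 65.2 and 90.5 in the OT2 mice. The groups were far apart, but the OT2 values rest on 6, 6 and 18 UMIs (log2 fold change -1.60, SE 0.36, adjusted p = 0.000392, edgeR). Atp5g2 had 524.9, 295.7 and 453.7 CPM with OT1 and 187.8, 239.1 and 191.0 with OT2 (-1.13, SE 0.29, adjusted p = 0.00214, edgeR). Uqcrq, a small subunit of complex III, had 230.6, 385.9 and 482.6 with OT1 and 117.4, 228.2 and 221.2 with OT2 (-1.07, SE 0.29, adjusted p = 0.00434, edgeR). Its OT1 NoSelection value lay just above the highest OT2 value, and the other OT1 values were well above. Cox6c, a complex IV subunit, had 676.0, 661.6 and 762.5 with OT1 and 363.8, 456.4 and 407.1 with OT2, with no overlap (-0.89, SE 0.26, adjusted p = 0.00886, edgeR). Ndufb9 had 182.9, 185.4 and 328.2 with OT1 against 129.1, 130.4 and 125.7 with OT2 (-0.98, SE 0.33, adjusted p = 0.0235, edgeR), and Uqcr10 had 262.4, 335.8 and 347.5 against 140.8, 217.3 and 165.9 (-0.97, SE 0.29, adjusted p = 0.0121, edgeR).

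The CD4+CD8+ cells of the 2 receptors also differed otherwise. The median cell of this gate had 3576, 4575 and 4204 UMIs in the OT1 mice and 1851.5, 2585 and 2292.5 in the OT2 mice, and cycling cells made up 18.5%, 12.2% and 15.8% against 0% in all 3. In CD4+CD8+ cells of 2000 to 5000 UMIs, 0 of 58 nuclear members passed with edgeR, beside 0.789% of all genes tested, 6 had an unadjusted p under 0.05 and the median was -0.28. Without cycling cells 4 of 69 were lower, beside 6.07% of all genes, and the median was -0.40. DESeq2 called 0 of the 71 members (12 at an unadjusted p under 0.05), beside 4.42% of all genes in either direction, and limma-voom 16, all lower, beside 17.0% of all genes in either direction. Without the OT1 NegSelected or the OT2 NegSelected mouse edgeR called 1 each, without OT2 NoSelection 2, without OT1 NoSelection 4, and without OT1 PosSelected or OT2 PosSelected 17 and 16. The share of all genes called lower in these 6 fits ran from 2.38% to 4.33% in the first 4 and was 9.96% and 8.73% in the others.

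Cells were split by CD4 and CD8A antibody tags into 4 gates, without use of RNA. Summed over mice, Cd4 RNA was at 261 and 264 CPM in CD4+CD8+ and CD4+CD8- cells against 13.9 and 9.95 in CD4-CD8+ and CD4-CD8- cells, and Cd8a at 1020 and 667 in CD4+CD8+ and CD4-CD8+ cells against at most 36.0 in the other 2. Rag1, made before selection, was at 225 CPM in CD4+CD8+ cells and at most 7.2 elsewhere. Trdc, the constant gene of the delta chain, was at 888 CPM in CD4-CD8- cells. The CD4-CD8+ gates of the OT2 NoSelection and OT2 PosSelected mice held 5 and 7 cells and were left out, so that 22 of 24 sums were used.

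Relative to CD4+CD8+ cells, neither genome's share moved the same way in all mice. The nuclear genes took 2.33%, 2.28% and 2.65% of UMIs in CD4+CD8+ cells of the OT1 mice (NoSelection, PosSelected, NegSelected) and 1.69%, 1.88% and 1.74% in those of the OT2 mice. In CD4-CD8- cells they took 1.96%, 2.30% and 2.17% with OT1 and 2.30%, 1.88% and 2.09% with OT2. The mean difference was 0.023 percentage points (SD 0.413 over 6 mice), positive in 3 of 6. CD4+CD8- cells were lower than CD4+CD8+ cells in 5 of 6 mice (mean -0.229, SD 0.273), and CD4-CD8+ cells higher in 3 of 4 (0.074, SD 0.139), both within the spread. The mitochondrial share was lower in CD4-CD8- than in CD4+CD8+ cells in 5 of 6 mice (mean -0.058, SD 0.073). Its highest value was 0.549% in CD4+CD8+ cells of OT2 NoSelection, whose median cell was the shallowest of that gate. There the ribosomal mt- genes took 2.69% of UMIs, against 0.79% to 1.95% in the other 5 mice.

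**Figure D4:**
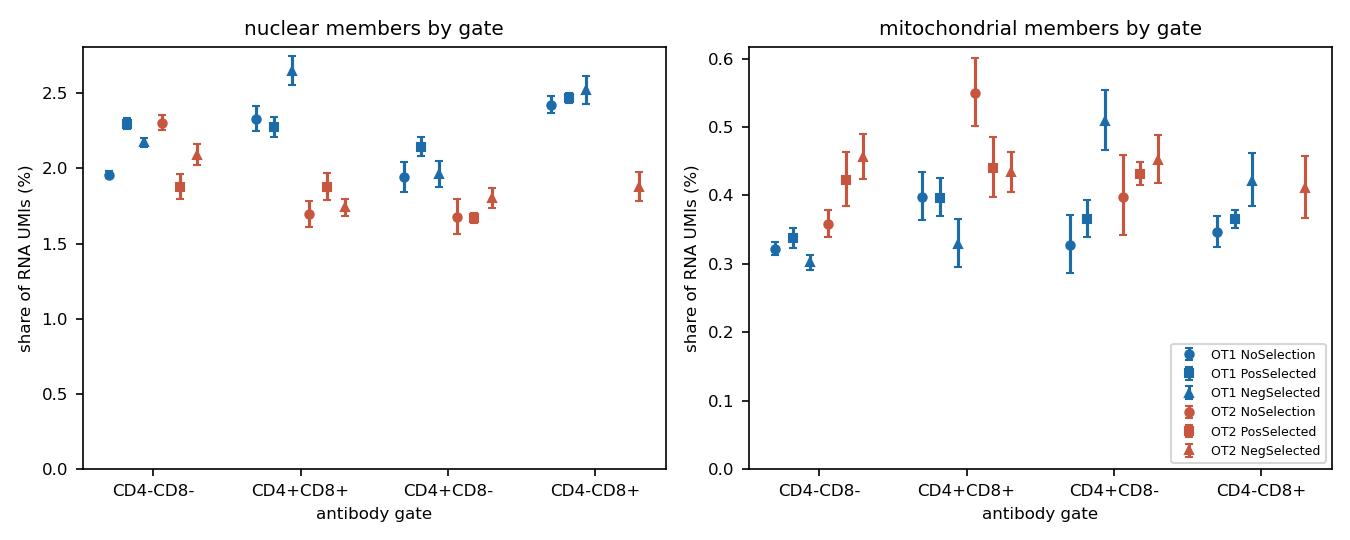
Share of RNA UMIs (%) of nuclear (left) and mitochondrial members (right) in the 4 antibody gates; each point is a mouse (blue OT1, red OT2; shape shows the host) with a 95% interval for counting error. In CD4+CD8+ cells the 3 OT1 mice (2.28% to 2.65%) lie above the 3 OT2 mice (1.69% to 1.88%), and in CD4-CD8- cells the receptors overlap.

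Few members passed the test between gates. In CD4-CD8- against CD4+CD8+ cells, 503 of 4303 genes passed (11.7%; 6.95% as higher and 4.74% as lower), and of 79 nuclear members 1 did, Atp5pb, subunit b in the stator of the ATP synthase. It had 349.9, 335.8 and 366.8 CPM in CD4+CD8+ cells of the OT1 mice and 293.4, 271.7 and 311.6 in those of the OT2 mice. In CD4-CD8- cells it had 458.8, 494.4 and 480.6 with OT1 and 503.1, 641.1 and 373.5 with OT2. Every CD4-CD8- value exceeded every CD4+CD8+ value, and the fold change was 0.66 (SE 0.16, adjusted p = 0.00769, edgeR). In cells of 2000 to 5000 UMIs the fold change was -0.16 (adjusted p = 0.777), and the call was also lost without OT2 PosSelected (0.54, adjusted p = 0.053) and with gates set on unscaled antibody counts (0.38, adjusted p = 0.300).

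The other members of this comparison split in direction. The nuclear median was 0.05 against -0.03 over all genes, with 51 of 79 above 0 and 13 at an unadjusted p under 0.05. That median turned to -0.21 in cells of 2000 to 5000 UMIs, where 4 of 69 (Atp5g3, Atp5h, Cox6a1 and Ndufb11) were called lower, beside 3.48% of all genes, and none higher, to -0.06 without cycling cells, to -0.05 without the deepest cells and to -0.04 without OT2 NoSelection. Of 8 mitochondrial members 0 passed with edgeR, DESeq2 or limma-voom, 0 had an unadjusted p under 0.05 with edgeR, and 6 were below 0 (median -0.16). Sdhd had the next lowest p (0.75, SE 0.26, adjusted p = 0.0637, edgeR), with 71.6, 75.2 and 57.9 CPM in CD4+CD8+ cells with OT1 and 70.4, 21.7 and 15.1 with OT2, against 85.9, 92.8 and 108.4 and 93.8, 55.8 and 54.2 in CD4-CD8- cells. It was higher in CD4-CD8- cells in 6 of 6 mice. Cox5a was at 0.47 (SE 0.17, adjusted p = 0.0835, edgeR) and Ndufs4, an accessory subunit of complex I, at -0.48 (SE 0.18, adjusted p = 0.0811, edgeR).

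In CD4+CD8- against CD4+CD8+ cells, 496 genes passed (11.5%; 6.41% as higher and 5.11% as lower) and 1 nuclear member, Atp5e, the epsilon subunit in the central stalk of the ATP synthase. It had 652.1, 666.6 and 791.5 CPM in CD4+CD8+ cells with OT1 and 387.3, 510.7 and 457.4 with OT2. In CD4+CD8- cells it had 916.2, 844.1 and 748.9 with OT1 and 662.5, 618.6 and 841.7 with OT2. It was higher in CD4+CD8- cells in 5 of 6 mice (0.54, SE 0.18, adjusted p = 0.0486, edgeR). The call stood close to the threshold and held in 9 of 19 settings, with the adjusted p at 0.432 under unscaled gates, 0.078 in cells of 2000 to 5000 UMIs and between 0.065 and 0.216 when any 1 mouse but OT1 NegSelected was left out. The nuclear median was -0.03 against -0.05 over all genes, with 38 of 79 above 0, and the mitochondrial median 0.17, with 6 of 8 above 0 and 0 passing. Cox5b (-0.52, SE 0.21, adjusted p = 0.122, edgeR), Ndufs5 (-0.54, SE 0.23, adjusted p = 0.148, edgeR) and Sdhd (0.81, SE 0.30, adjusted p = 0.0830, edgeR) did not pass.

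In CD4-CD8+ against CD4+CD8+ cells 100 genes passed (2.32%; 1.81% as higher and 0.511% as lower) and no member did with edgeR, DESeq2 or limma-voom. At an unadjusted p under 0.05 there were 9 nuclear and 1 mitochondrial member with edgeR. Yet 64 of 79 nuclear members were above 0, with a median of 0.22 against -0.03 over all genes, including 12 of 12 of complex IV and 16 of 17 of complex V. This was the gate comparison in which the nuclear median kept its sign under every setting tried, from 0.10 to 0.40. The lowest p values were those of Atp5e (0.61, SE 0.20, adjusted p = 0.0929, edgeR), Sdhd (0.84, SE 0.30, adjusted p = 0.138, edgeR), Ndufb2 (0.70, SE 0.26, adjusted p = 0.155, edgeR) and mt-Nd1 (0.53, SE 0.20, adjusted p = 0.162, edgeR). Atp5e had 848.2, 979.8 and 756.5 CPM in CD4-CD8+ cells of the OT1 mice and 842.0 in the 1 OT2 mouse with enough cells. These values are set against the same CD4+CD8+ cells as the other gates.

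The cytosolic ribosome list was called more often in the same fits. Of 86 cytosolic ribosome genes, 45, 65 and 23 rose in CD4-CD8-, CD4+CD8- and CD4-CD8+ cells against CD4+CD8+ cells, with medians of 0.57, 0.73 and 0.70. Of 54 mitochondrial ribosome genes, 1, 1 and 0 did. The nuclear oxidative phosphorylation genes, with 1, 1 and 0 of 79, had counts like those of the mitochondrial ribosome; this difference between lists was not tested. Levels averaged over mice were compared over the 4 gates among members with a mean of at least 50 CPM. They varied most for Cox5b (range 1.01 on the log2 scale), Ndufa12 (0.98) and Ndufs3 (0.91). The range was least for Atp5c1 (0.04), Sdha (0.09) and Ndufa2 (0.12). The CD4-CD8+ mean lacks OT2 NoSelection and OT2 PosSelected, so these ranges mix receptor with gate.

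Whether the change between CD4+CD8+ and CD4-CD8- cells depended on the receptor was tested with an interaction term, added after the data were seen. Of 5809 genes 60 passed (1.03%), and among them were 2 members. Atp5k had 110.8, 118.4 and 148.0 CPM in CD4-CD8- cells with OT1 against 198.8, 240.6 and 212.3 in CD4+CD8+ cells of the same mice. With OT2 it had 133.6, 83.6 and 156.6 in CD4-CD8- cells against 70.4, 65.2 and 90.5. It was lower in CD4-CD8- cells in 3 of 3 OT1 mice and higher in 3 of 3 OT2 mice, and the log2 fold changes differed by 1.65 (SE 0.41, adjusted p = 0.0449, edgeR). Uqcrq had 294.0, 416.0 and 332.5 CPM in CD4-CD8- cells with OT1 and 520.2, 641.1 and 391.6 with OT2, against the CD4+CD8+ values given above. It was higher in CD4-CD8- cells in 3 of 3 OT2 mice and in 2 of 3 OT1 mice, with a difference of 1.58 (SE 0.37, adjusted p = 0.0334, edgeR). In cells of 2000 to 5000 UMIs the differences were 0.61 for Atp5k (adjusted p = 0.892) and 1.53 for Uqcrq (adjusted p = 0.292), and both passed without cycling cells (adjusted p = 0.016 and 0.004). When any 1 mouse was left out, at most 1 of the pair passed: Uqcrq without OT1 PosSelected, Atp5k without OT2 PosSelected, and neither otherwise. For CD4+CD8- and CD4-CD8+ cells the interaction was passed by 0.121% and 0.516% of genes and by 0 members.

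**Figure D5:**
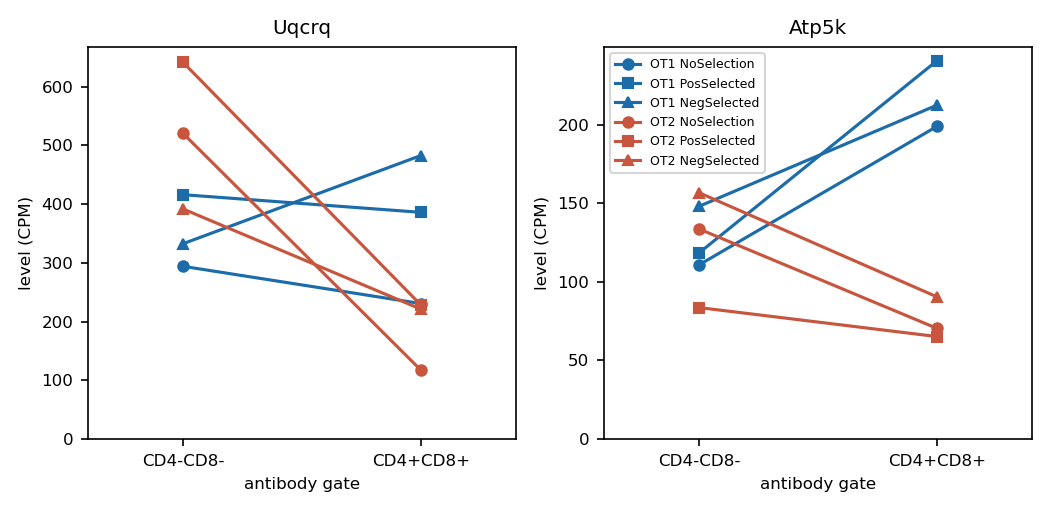
Level (CPM) of Uqcrq and Atp5k in CD4-CD8- and CD4+CD8+ cells; each line joins the 2 gates of 1 mouse (blue OT1, red OT2; shape shows the host). In CD4+CD8+ cells Atp5k is lower than in CD4-CD8- cells in the 3 OT2 mice (65.2 to 90.5) and higher in the 3 OT1 mice (198.8 to 240.6).

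The hosts were compared with the receptor as the other term, which left 2 mice per host. PosSelected against NoSelection had 1 gene called (0.011%), and NegSelected against PosSelected and NegSelected against NoSelection had 0.0% each. No member passed in any of the 3 with edgeR, DESeq2 or limma-voom, and at an unadjusted p under 0.05 edgeR had 1 mitochondrial member in the first and 0 members in the others. That one was mt-Nd2, with 221.7 and 233.9 CPM in the NoSelection mice (OT1, OT2), 263.3 and 360.1 in the PosSelected mice and 231.1 and 293.5 in the NegSelected mice. It was highest in PosSelected with either receptor (0.48 against NoSelection, SE 0.19, adjusted p = 0.643, edgeR). Next came the complex I assembly factor Ndufaf8 (0.45, adjusted p = 0.754), mt-Cytb (0.33, adjusted p = 0.759) and Ndufb3 (0.35, adjusted p = 0.767).

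The mitochondrial genes leaned to higher values in PosSelected than in NoSelection mice, with 9 of 11 above 0 and a median of 0.19, against -0.01 over all genes. That median was 0.37 without cycling cells and 0.34 in cells of 2000 to 5000 UMIs, and leaving out 1 mouse moved it between 0.13 without OT2 NoSelection and 0.35 without OT1 NoSelection. For nuclear members 46 of 87 were above 0 (median 0.02), and this median turned to -0.20 without OT1 NoSelection and to -0.11 without OT1 PosSelected. In NegSelected against PosSelected, 32 of 87 nuclear members were above 0 (median -0.04) and 4 of 11 mitochondrial ones (median -0.06). In NegSelected against NoSelection the counts were 40 of 87 (median -0.02) and 8 of 11 (median 0.13). The nuclear medians of both changed sign in other settings. The 3 host comparisons share mice in pairs and are not independent of each other.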

How the data were processed

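RNA and antibody libraries of 6 mice were used, and those of the T cell receptor were not. The authors deposited raw UMI counts per gene and cell and per antibody and cell, made with Seurat and Cell Ranger 8.0.1 on the build mm10, per the submitters' processing notes; their cell and doublet filters are not given in the sources used here. No cell was removed (lowest gene number 506, highest share of all mt- genes 9.94%) and no doublet caller was run. The members and lists were chosen with earlier results of these data known.

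CD4 and CD8A antibody counts were scaled to the median antibody total (4457), and gate thresholds (5.75 and 6.24 on the log2 scale) came from a 2-component Gaussian mixture (scikit-learn 1.9.0). The planned unscaled counts, kept as an alternative, put 328 cells in another gate. UMI counts summed per mouse, or per mouse and gate with at least 10 cells, were tested with edgeR 4.0.16 (R 4.3.3; TMM, filterByExpr, quasi-likelihood F test, two-sided) with terms for receptor and host (2 residual degrees of freedom) or for mouse and gate. P-values were Benjamini-Hochberg adjusted over all genes tested (threshold 0.05); the SE is the log2 fold change divided by the square root of F. Alternatives were DESeq2 1.42.0, limma 3.58.1 (voom), other scalings, filters and sets of cells, and leaving out each mouse. Fits were tested on simulated data.

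Named were the 13 mitochondrial members, isoform sets, complex II, 1 anchor gene per complex, up to 6 called members in each direction by size (mean of at least 50 CPM) or, with fewer than 3 called, the 4 lowest p, and the widest and narrowest ranges over gates. Other genes were named after their values were seen.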

Additional observations from a re-analysis of the deposited data

Results flagged for a closer look

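For 2 genes the change between CD4-CD8- and CD4+CD8+ cells differed between the receptors by the interaction term of edgeR. The log2 fold change was higher with OT2 than with OT1 by 1.58 for Uqcrq (SE 0.37, adjusted p = 0.0334) and by 1.65 for Atp5k (SE 0.41, adjusted p = 0.0449). Atp5k was at 6, 6 and 18 UMIs in the CD4+CD8+ cells of the OT2 mice. In cells of matched depth (2000 to 5000 UMIs) neither passed, and every setting that left out 1 mouse lost at least 1 of them. The part of depth in these differences was not tested further.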

How the results depend on the processing

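The gates split 1 thymus, so the mouse is the replicate block; without the replicate block 1, 1 and 1 nuclear members passed in CD4-CD8-, CD4+CD8- and CD4-CD8+ against CD4+CD8+ cells, beside 1, 1 and 0 with it, and 0 mitochondrial members either way. The receptor comparison was matched by host through the host term; without it 45 genes passed in place of 97, and 0 members either way. The replicate numbers, all 1, pair nothing further.

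Counts of nuclear members changed most. The share of all genes called also differs between settings and is not given beside the counts below. In the main fit for CD4-CD8- cells it was 11.7%. A higher or lower count is therefore not read as a stronger or weaker result for the members. For CD4-CD8- cells they were 2 with limma-voom, 3 with no filter on low counts, 3 without the deepest cells, 2 without cycling cells, 4 in cells of 2000 to 5000 UMIs (all lower, with Atp5pb at -0.16), 5 with at least 20 cells per sum, 9 without cells near a gate threshold, and 0 to 3 leaving out 1 mouse. For CD4+CD8- cells they were 0 with RLE size factors, no filter, 2000 to 5000 UMIs, at least 20 cells or unscaled gates, 3 without cells near a threshold, and 0 to 1 leaving out 1 mouse. For CD4-CD8+ cells they were 1 without cycling cells, 1 with at least 20 cells, 2 without cells near a threshold (with 1 mitochondrial member), and 0 to 2 leaving out 1 mouse. For OT2 against OT1 they were 1 with no filter, 15 in CD4+CD8+ cells, and 0 to 3 leaving out 1 mouse. The count of 15 was 0 with DESeq2, 0 at 2000 to 5000 UMIs, 4 without cycling cells, and 1 to 17 leaving out 1 mouse. The 2 interaction calls were 0 at 2000 to 5000 UMIs and 0 to 1 leaving out 1 mouse. The 45 nuclear calls for cycling cells were 21 with DESeq2, and 14, 3 and 17 at 8000 to 14000 UMIs with edgeR, DESeq2 and limma-voom; the 3 mitochondrial calls were 1, and 1, 0 and 1. The mitochondrial share with OT2 minus OT1 was 0.0567 percentage points at 2000 to 5000 UMIs instead of 0.084. The causes were not tested. All other counts, 214, stayed within 1.5 times, a label also given where both counts were 0. Of 90 values of shares, 89 stayed within 1 SD over mice, which is a wide limit. The nuclear share in CD4-CD8- minus CD4+CD8+ cells turned from 0.023 to -0.148 percentage points without the deepest cells, within its SD of 0.413.

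Depth limits all of this: OT2 cells are shallow, gate sums of small gates rest on few UMIs, and 1 mouse per group leaves mouse and group inseparable.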

Other observations

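Cycling cells were set against other cells of the same depth class after the data were seen, since cycling cells were deep and mostly from OT1 mice. In the 3 OT1 mice, cells of at least 8000 UMIs were split by the 9 cycling genes, giving 29, 31 and 22 cycling and 25, 25 and 21 other cells in the NoSelection, PosSelected and NegSelected mice. The nuclear oxidative phosphorylation genes took 2.90%, 3.10% and 3.01% of UMIs in the cycling cells and 1.88%, 2.16% and 2.02% in the others. The mitochondrial genes took 0.318%, 0.292% and 0.261% against 0.359%, 0.378% and 0.349%. All 3 mice had a higher nuclear and a lower mitochondrial share in cycling cells, and the 2 kinds of cell did not overlap over mice in either. The cycling cells were still deeper, with median UMIs of 15454, 13822 and 13218.5 against 10489, 9282 and 9173.

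With the mouse as block, edgeR called 36.9% of 5544 genes, 19.1% as higher and 17.7% as lower in cycling cells. Of 82 nuclear members 43 rose and 2 fell (Uqcrh and Cox7a2l), 77 were above 0, and the median was 0.50 on the log2 scale against -0.02 over all genes. Complex V had the largest share, with 13 of 17 higher, followed by complex IV with 7 of 12, complexes II and III with 2 of 4 and 4 of 8, and complex I with 16 of 36. Cox7a2 (1.20, SE 0.19, adjusted p = 1.16e-05, edgeR), Atp5g1 (1.17, SE 0.19, adjusted p = 9.49e-06, edgeR) and Atp5g3 (1.12, SE 0.17, adjusted p = 7.32e-06, edgeR) changed most among these. Of 8 mitochondrial members none rose and 3 fell: mt-Co1 (-0.69, SE 0.16, adjusted p = 0.000996, edgeR), mt-Nd4 (-0.60, SE 0.22, adjusted p = 0.0290, edgeR) and mt-Nd5 (-0.43, SE 0.17, adjusted p = 0.0476, edgeR). mt-Cytb was at -0.12 (adjusted p = 0.588, edgeR). Of 75 mitochondrial ribosome genes 17 rose, and of 87 cytosolic ribosome genes 3 rose and 7 fell. In cells of 8000 to 14000 UMIs, closer in depth, 14 of 78 nuclear members rose and 0 fell, beside 10.6% and 10.0% of all 3904 genes. DESeq2 called 3 of the 78 higher, beside 4.79% of all genes. Cox7a2 stayed at 1.18 (adjusted p = 0.000475, edgeR), and of the mitochondrial members only mt-Co1 passed (-0.57, adjusted p = 0.0486, edgeR). The comparison shares the OT1 mice with the receptor comparison, and its part in that result was not tested beyond the values without cycling cells given above.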
